A study of Mus musculus with 2 samples.

Results

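Gene deserts are long stretches of the genome without protein-coding genes. Many that border developmental regulators are known to hold distal enhancers, short sequences bound by transcription factors that act on a promoter from far away, and open chromatin at such elements is cut readily by the enzyme DNase I. Here the most remote open chromatin of the newborn mouse kidney was described. DNase-seq, which sequences the ends of DNase I cuts, had been done on whole kidney tissue of B6NCrl mice at postnatal day 0, in 1 group of 2 replicates. The labels give the replicates separate tissue records but the same donor record, and name no treatment or mutation. Overlapping peaks were joined, and a joined region with a peak from both replicates counted as a shared site. A desert site was a shared autosomal site whose centre lay outside every annotated gene body and over 100 kb from every transcription start site (TSS) of a protein-coding gene. There were 19617 desert sites among 194662 shared autosomal sites, or 10.1%. They were set beside 44926 nearer intergenic sites, also outside gene bodies but 1 to 100 kb from the nearest protein-coding TSS, which made up 23.1%. With 1 group of 2 replicates no test between groups was possible, so each replicate has its own value, with mean ± SD where useful, and directions are counted over the 19 autosomes.

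The lists held 266133 peaks in replicate 1 and 257133 in replicate 2, and their sequencing depth is unknown here. Signal is the authors' own value per peak and has no stated unit or scaling, so levels were compared within a replicate and ratios between replicates only describe the lists. The spread between replicates may be technical, as separate animals are not stated. All 30 genes of a list of kidney developmental regulators had a promoter peak in both replicates, against 73.4% of all autosomal protein-coding genes, and 0% of the 39 chemosensory receptor genes that border deserts did. The kidney list was put together with earlier results of these data known, so this describes the tissue and is no independent check of it. In whole tissue, a site open in few cells and a site weakly open in many cells cannot be told apart.

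Sequences of the desert site of highest mean signal rank in each of the 5 clusters with the most sites, and of 5 of the strongest desert sites, are shown first because the results below return to these places. They are given 5′ to 3′ on the plus strand of GRCm38 (mm10), as the reference genome has them. Capitals mark matches to the short transcription factor consensus sequences that were searched within the central 150 bp, each searched separately so that matches may overlap, and lower case marks all other bases. Clusters are named by the protein-coding genes on either side.
chr12:79856641-79856810: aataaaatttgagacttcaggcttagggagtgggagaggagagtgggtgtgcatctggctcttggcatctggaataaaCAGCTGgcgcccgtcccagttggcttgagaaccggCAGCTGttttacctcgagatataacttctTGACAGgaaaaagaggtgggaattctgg
chr15:94213501-94213650: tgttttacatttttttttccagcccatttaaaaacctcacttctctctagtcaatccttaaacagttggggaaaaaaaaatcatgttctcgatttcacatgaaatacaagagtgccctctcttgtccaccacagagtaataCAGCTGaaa
chr2:166324561-166324750: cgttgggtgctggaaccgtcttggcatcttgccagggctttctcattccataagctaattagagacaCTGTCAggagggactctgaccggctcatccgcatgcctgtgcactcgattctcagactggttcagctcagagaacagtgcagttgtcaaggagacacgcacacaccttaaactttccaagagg
chr17:83983221-83983390: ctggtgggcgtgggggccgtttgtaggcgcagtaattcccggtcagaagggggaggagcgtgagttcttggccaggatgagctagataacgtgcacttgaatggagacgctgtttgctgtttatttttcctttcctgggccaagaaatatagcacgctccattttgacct
chr13:112002741-112002890: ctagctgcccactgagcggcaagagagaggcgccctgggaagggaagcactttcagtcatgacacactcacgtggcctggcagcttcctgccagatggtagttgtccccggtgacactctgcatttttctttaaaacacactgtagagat
chr3:5860621-5860770: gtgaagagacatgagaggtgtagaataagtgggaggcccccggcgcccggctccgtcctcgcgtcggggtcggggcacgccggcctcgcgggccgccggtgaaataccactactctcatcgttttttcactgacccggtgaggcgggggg
chr6:3201421-3201570: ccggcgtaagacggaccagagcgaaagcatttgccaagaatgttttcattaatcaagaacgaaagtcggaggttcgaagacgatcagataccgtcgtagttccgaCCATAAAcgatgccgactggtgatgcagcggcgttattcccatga
chr6:51172981-51173130: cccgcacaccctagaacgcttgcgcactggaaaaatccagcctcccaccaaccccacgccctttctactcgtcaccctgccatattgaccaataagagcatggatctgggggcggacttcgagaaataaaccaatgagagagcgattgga
chr16:25059321-25059470: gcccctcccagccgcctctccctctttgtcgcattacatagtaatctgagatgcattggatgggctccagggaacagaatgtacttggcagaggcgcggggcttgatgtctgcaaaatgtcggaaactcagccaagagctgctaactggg
chr6:51178561-51178730: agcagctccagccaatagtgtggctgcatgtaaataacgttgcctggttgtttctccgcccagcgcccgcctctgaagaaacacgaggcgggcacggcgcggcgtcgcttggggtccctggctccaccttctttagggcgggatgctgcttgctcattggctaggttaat

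The first 5 lines come from the clusters Rad51b–Zfp36l1, Prickle1–Adamts20, Sulf2–Prex1, Haao–Zfp36l2 and Map3k1–Ankrd55, in that order. Their capitals mark the E-box CAGCTG, bound by basic helix-loop-helix factors, and the MEIS core TGACAG, each on either strand, and the sites of the Haao–Zfp36l2 and Map3k1–Ankrd55 clusters held no match. The other lines are the strongest sites, and only the site on chromosome 6 at 3201421 to 3201570 among them held a match, to the posterior HOX consensus TTTATGG.

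Desert sites were sparse relative to the sequence available to them. The desert territory is all autosomal sequence outside annotated gene bodies that meets the distance rule. It spanned 635.9 Mb or 26.5% of the sequenced autosomes, and held 30.8 shared sites per Mb. The nearer intergenic territory spanned 584.8 Mb and held 76.8 sites per Mb. The ratio of the densities was 0.402 for shared sites, and 0.449 in the list of replicate 1 and 0.398 in that of replicate 2 (0.424 ± 0.036, SD, n = 2). Density was lower in desert than in nearer intergenic sequence on 19 of 19 autosomes, and desert density ranged from 23.8 sites per Mb on chromosome 3 to 46.0 on chromosome 13.

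The decline with distance began nearer than 100 kb and went on beyond it. Shared sites per Mb were 89.9 at 1 to 10 kb, 76.8 at 10 to 50 kb and 65.8 at 50 to 100 kb. They were 50.4 at 100 to 200 kb, 32.9 at 200 to 500 kb and 11.7 beyond 500 kb, and each replicate's own list fell in the same order. The median desert site lay 215.7 kb from the nearest protein-coding TSS, and the farthest 2642 kb away. Just inside the limit, at 100 to 110 kb, 1296 sites had median signals of 20.3 in replicate 1 and 18.4 in replicate 2. Just outside, at 90 to 100 kb, 1576 sites had median signals of 19.9 in replicate 1 and 18.1 in replicate 2. Remoteness from protein-coding genes was not remoteness from all annotation, as only 3749 desert sites lay over 100 kb from the TSS of any annotated gene and 466 (2.38%) lay within 1 kb of a non-coding one.

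**Figure D1:**
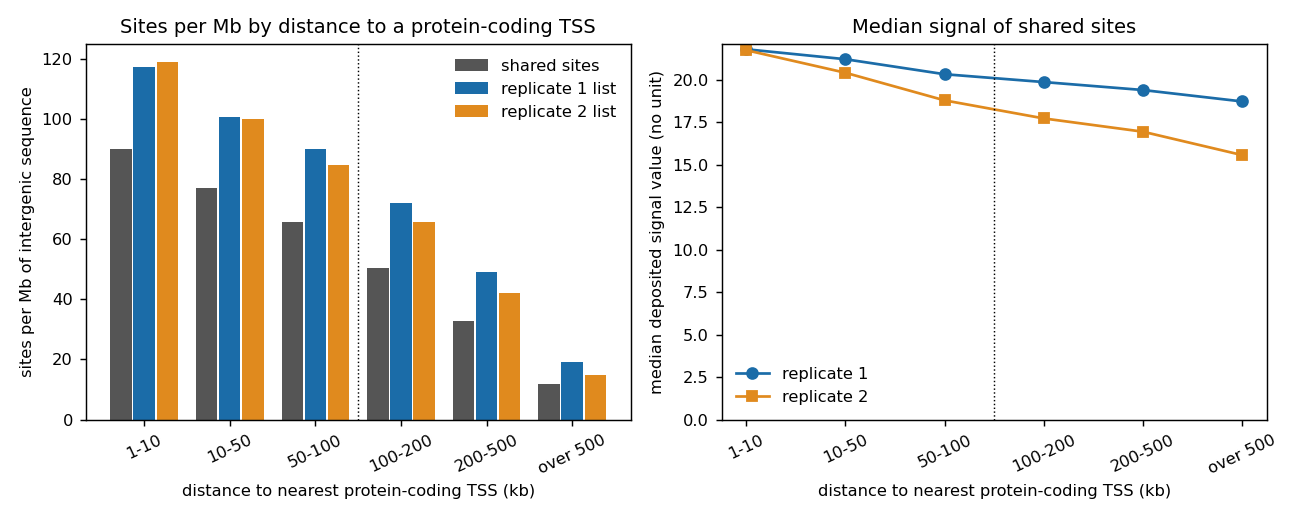
Sites per Mb of intergenic sequence (left) and median deposited signal of shared sites (right, no unit) by distance to the nearest protein-coding TSS in kb; bars or points stand for shared sites and each replicate, and desert sites lie right of the dotted line. Shared sites fell to 11.7 per Mb beyond 500 kb, against 89.9 at 1 to 10 kb, and the median of replicate 2 fell to 15.6, against 21.8.

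Desert sites were also weaker. Their median signal was 19.5 (replicate 1) and 17.1 (replicate 2), against 21.1 and 20.4 at nearer intergenic sites. The ratio of medians averaged 0.882 ± 0.061 (SD, n = 2), from 0.925 in replicate 1 and 0.839 in replicate 2, and it was below 1 on 19 of 19 autosomes in both replicates. A signal over 100 was rare: 110 desert sites (0.561%) had it in both replicates, against 1.69% of nearer intergenic sites. By distance, the median fell to 18.7 in replicate 1 beyond 500 kb, against 21.8 at 1 to 10 kb.

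The replicates differed more at desert sites than nearer to genes. The Spearman correlation of signal between replicates was 0.846 over desert sites and 0.897 over nearer intergenic sites, a description only. Desert signals also covered a narrower range. Their lower and upper quartiles in replicate 2 were 12.6 and 26.8, against 13.8 and 36.4 at nearer intergenic sites. The part of this range in the correlation was not tested. Signal was higher in replicate 1 at 65.6% of desert sites, against 50.7% of nearer intergenic sites. The median log2 ratio of replicate 1 over replicate 2 was 0.15 at desert sites and 0.01 at nearer intergenic sites, and was higher at desert sites on 19 of 19 autosomes. The SD of this log2 ratio over sites was close in the 2 kinds, 0.363 at desert sites and 0.351 at nearer intergenic sites. Over 2-fold differences were few, with 210 desert sites higher in replicate 1 and 25 higher in replicate 2, against 189 and 97 of the more numerous nearer intergenic sites. Of the desert sites in a replicate's own list, 68.0% were shared in replicate 1 and 77.9% in replicate 2, against 76.0% and 77.2% of nearer intergenic sites.

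Base composition moved with this difference. Median G+C content of the central 150 bp was 45.3% at desert sites and 49.3% at nearer intergenic sites. Among desert sites the median log2 ratio of replicate 1 over replicate 2 was 0.26 below 40% G+C and −0.02 at 60% or above. Among nearer intergenic sites it was 0.14 and −0.08 in the same ranges. At 40 to 50% G+C it was still 0.15 at desert sites, against 0.03 at nearer intergenic sites. Median signal was lower at desert sites than at nearer intergenic sites in every G+C range and in both replicates. In replicate 1 it was 18.95 against 19.2 below 40% G+C, and 19.2 against 19.9 at 40 to 50%. Those gaps were smaller than over all sites, 19.5 against 21.1. At 60% or above it was 25.6 against 31.99. In replicate 2 it was 15.4 against 17.1 below 40%, and 16.9 against 18.8 at 40 to 50%. Beyond these ranges, the part of base composition in the weaker signal of desert sites was not tested.

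Many desert sites lay close together. Of all desert sites, 72.5% had another desert site within 10 kb, against 82.0% of nearer intergenic sites with another of their own kind, and the median gap to the next was 3.16 kb at desert sites and 1.98 kb at nearer intergenic sites. Chains of sites with gaps of at most 10 kb gave 2114 clusters of 3 or more, which held 10251 desert sites (52.3%). A further 5402 sites (27.5%) stood alone. There were 140 clusters of 10 or more.

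Sites in long chains were stronger than isolated ones. In clusters of 10 or more the median signal was 22.2 (replicate 1) and 20.1 (replicate 2), against 18.3 and 16.0 at sites alone. Median G+C content was 48.0% in those clusters and 44.0% at sites alone. A consensus match of CTCF, the zinc finger protein that binds insulators and chromatin loop anchors, was found in 1.34% of sites in those clusters, against 3.28% of sites alone.

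The largest cluster held 38 sites over 99.6 kb between Rad51b, a homologous recombination gene, and Zfp36l1, which encodes an RNA-binding protein that destabilises mRNAs with AU-rich elements. It spanned chr12:79814661-79914230, 198.8 kb from the TSS of Zfp36l1, with median signals of 24.96 in replicate 1 and 24.3 in replicate 2. Its site of highest mean rank, the first sequence above with a pair of E-boxes, had signals of 113 in replicate 1 and 99.5 in replicate 2, where another site of the cluster reached 103. The next held 30 sites between Prickle1 and Adamts20, which encodes a secreted metalloproteinase, at chr15:94185241-94265930, with medians of 28.9 in replicate 1 and 21.3 in replicate 2. The others held 24 sites between Sulf2 and Prex1, 23 between Haao and Zfp36l2, a paralogue of Zfp36l1, and 23 between Map3k1 and Ankrd55. All 5 had median signals above that of all desert sites in replicate 2, and in replicate 1 the Sulf2–Prex1 cluster, at 18.5, did not. CTCF matches were found at 2 sites of the Prickle1–Adamts20 cluster and at 0 sites of the other clusters of the 5.

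Desert blocks, the stretches of desert territory between neighbouring protein-coding TSSs, differed widely. Of 1570 blocks 246 had no site, and these were short, with 18.2 Mb in all. The 496 densest blocks held 50% of the sites in 14.2% of the territory. They were picked by their own density, so the direction of this difference follows from the choice. Among 173 blocks of 1 Mb or more, density ran from 0.459 sites per Mb between Adam6a and Zfp386 to 131 between Zfp608 and Gramd3, with a median of 9.89. Blocks end at protein-coding TSSs only, so genes of other annotated types can lie inside them. The Adam6a–Zfp386 block spanned 2.30 Mb, of which 2.18 Mb was sequenced and outside every annotated gene body. The Epha5–Cenpc1 block held 2 sites in 1.44 Mb and the Cox7c–Edil3 block 4 sites in 2.51 Mb.

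The Zfp608–Gramd3 block held the most sites of any block, 152, and Zfp608 encodes a zinc finger protein. The Npvf–Nfe2l3 block on chromosome 6 followed with 115 sites at 229 per Mb. Then came Zeb2–Acvr2a with 108, Sel1l–Flrt2 with 107, Cd83–Jarid2 with 106, Mki67–Mgmt with 102, Cdh11–Cdh5 with 97, Fat4–Intu with 90, Epha7–Map3k7 with 88 and Nr2f2–Gm10295 with 85. By density, among blocks of at least 0.2 Mb with at least 5 sites, Map3k1–Ankrd55 stood highest at 281 sites per Mb, followed by Serp2–Lacc1 at 262, Npvf–Nfe2l3 at 229, and Uaca–Tle3 and Cd83–Jarid2 at 218 each.

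**Figure D2:**
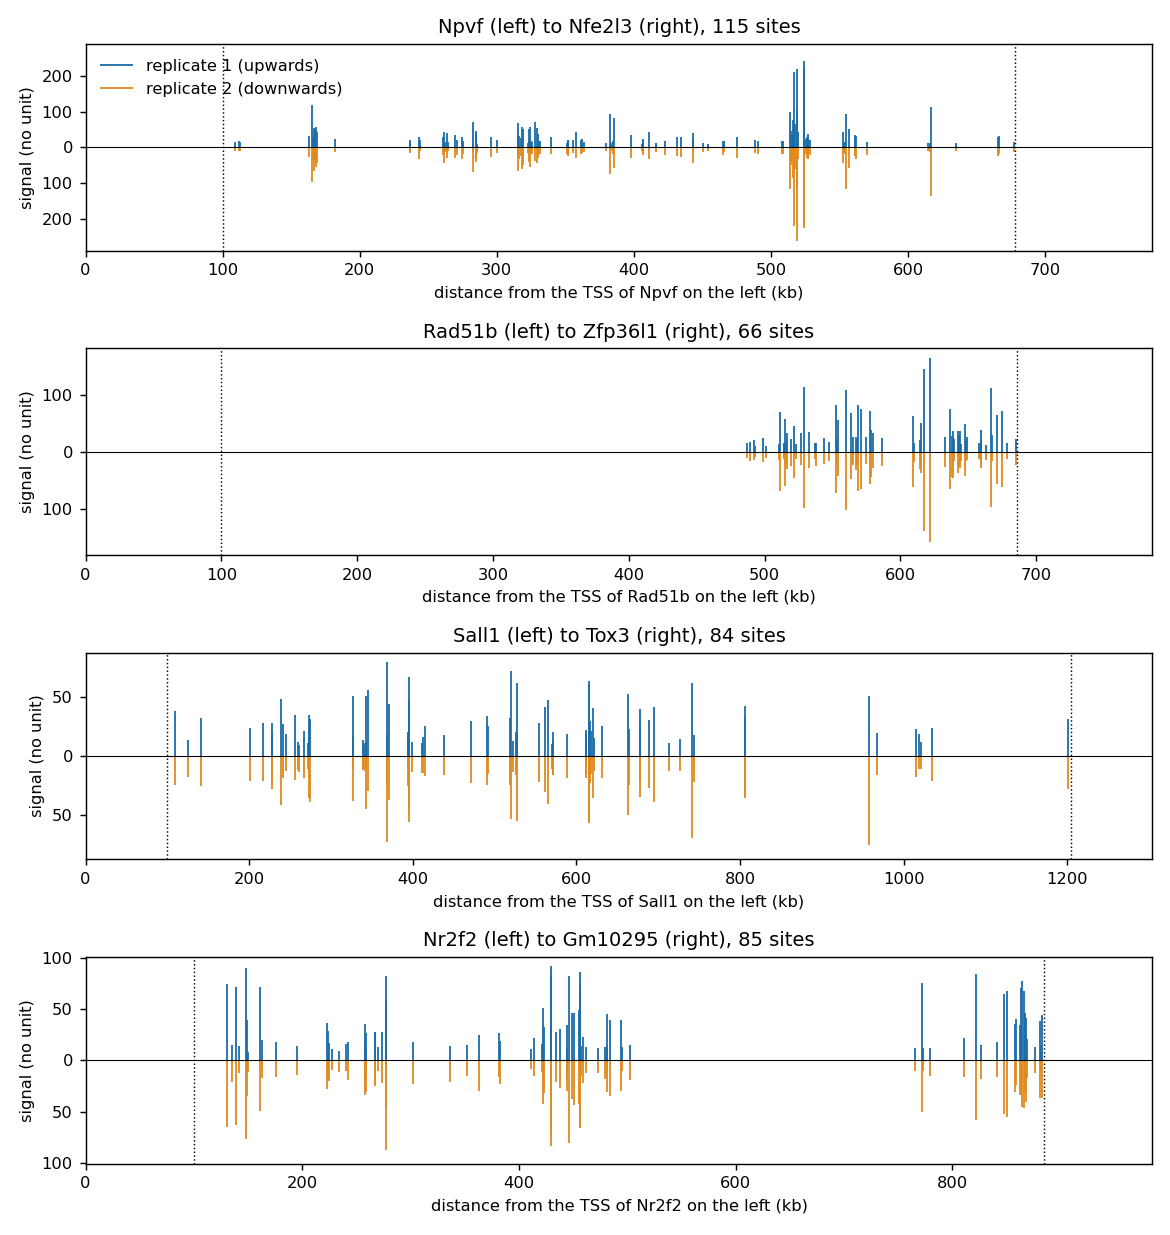
Deposited signal (no unit) of every desert site in 4 blocks against distance in kb from the TSS of the gene on the left, with replicate 1 upwards and replicate 2 downwards; dotted lines mark 100 kb from either gene, and gene bodies hold no desert site. The sites are unevenly spaced, and the highest of the Npvf–Nfe2l3 block reached 241 in replicate 1 and 263 in replicate 2.

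The strongest desert sites fell into distinct kinds of place. Of the 10 with the highest mean rank of signal, 4 lay in the Npvf–Nfe2l3 block, 254 to 262 kb from the TSS of Nfe2l3, a basic leucine zipper factor, and 91.3 to 98.8 kb from the microRNA gene Mir148a, the nearest annotated TSS of any kind. All 4 belonged to the same cluster of 19 sites. Their signals were 219, 241, 220 and 211 in replicate 1 and 263, 225, 214 and 221 in replicate 2, so every value exceeded 200 in both replicates. Another 3 lay beside the start of a non-coding transcript. The site at chr16:25059321-25059470, with 257 in replicate 1 and 239 in replicate 2, was 0.243 kb from the lincRNA A230028O05Rik. A site 0.19 kb from the lincRNA Gm20732 had 194 in replicate 1 and 248 in replicate 2. A site 0.152 kb from a TSS of Zswim6 had 184 in replicate 1 and 259 in replicate 2, and it counted as a desert site because GENCODE M21 types this gene as a processed transcript, whereas RefSeq types it as protein-coding. In all, 194 desert sites (0.989%) lay within 100 kb of a TSS of such a gene, a count added after seeing the data, and 19423 sites were left without them.

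The remaining 3 of these 10 sites had close copies elsewhere in the genome, defined as other alignments of at least 80% identity over at least 100 bp. The site at chr6:3201421-3201570, with signals of 384 in replicate 1 and 590 in replicate 2, had 5 such copies, and the closest was 95.3% identical over 150 bp to chr17:39847332-39847481 within Rn18s-rs5, annotated as an 18S ribosomal RNA related sequence. The site at chr3:5860621-5860770, with signals of 393 in replicate 1 and 449 in replicate 2, had 2, the closest at 87.9% identity. The site at chr18:68692061-68692210, with signals of 195 in replicate 1 and 256 in replicate 2, had 19, with identities of 80.5 to 96.7%. The other 7 had none. Whether reads from the copies contribute to these signals was not tested. The central 32-mer of each of these 10 sites occurred once in the assembled chromosomes, so a filter on exact copies of that length removes none of them. Copies missing from the assembled sequence are counted by neither search, so these numbers of copies are lower limits.

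Desert sites were more frequent around developmental transcription factor genes than in the rest of the desert. Desert sequence was assigned to the protein-coding gene with the nearest TSS, and genes were put in classes by symbol families. The 165 developmental transcription factor genes bordered 41.9 Mb of desert, 6.60% of the territory, and were nearest to 1972 sites (10.1%), or 47.0 per Mb. The rest of the desert held 29.7 per Mb. The ratio was 1.58 for shared sites, and 1.54 in the list of replicate 1 and 1.62 in that of replicate 2 (1.58 ± 0.054, SD, n = 2). It was above 1 on 14 of 19 autosomes, and 1.48 without the 3 genes with the most sites.

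Density differed among the other classes too. Genes of secreted signals had 46.9 sites per Mb, all other genes 32.7, chemosensory receptor genes 24.2 and neuronal adhesion, receptor and channel genes 14.0. The last class held 16.9% of the territory but 7.67% of the sites. Not all its members are chiefly neuronal, as Cdh5 encodes the endothelial VE-cadherin and Cdh11 a mesenchymal cadherin. The secreted class likewise held more than signals, such as the metalloproteinase gene Adamts20. The classes were not matched for distance to the TSS, over which density fell. The 153 neuronal class genes bordered 107.2 Mb of desert, against 467.7 Mb for the 2103 genes of no class. The part of distance in these densities was not tested. Signal did not follow density: the median of sites nearest developmental transcription factor genes was 18.9 in replicate 1 and 16.6 in replicate 2, against 19.7 (replicate 1) and 17.3 (replicate 2) for genes of no class. CTCF matches were found in 0.862% of sites nearest developmental transcription factor genes, against 2.26% of all desert sites.

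**Figure D3:**
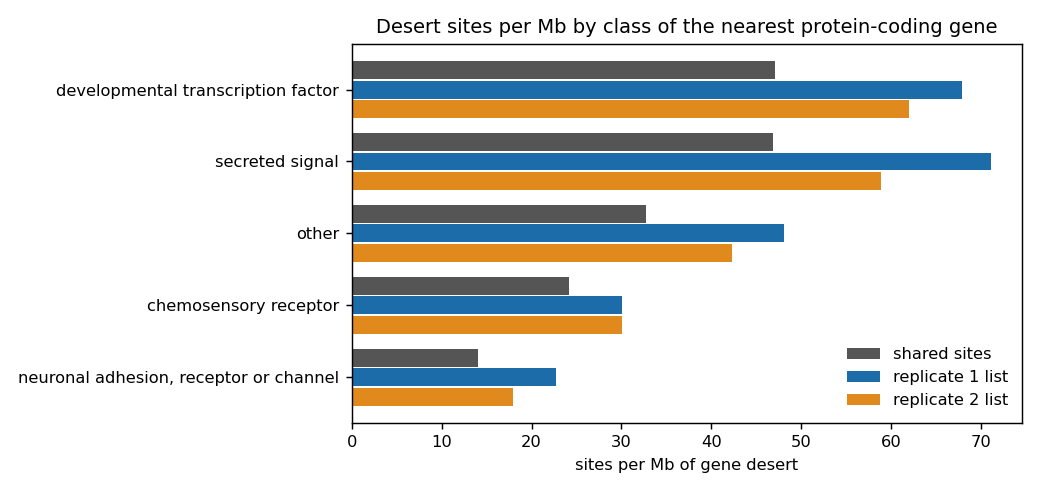
Desert sites per Mb of desert by class of the nearest protein-coding gene, for shared sites and for each replicate's own list. Shared sites stood at 47.0 per Mb near developmental transcription factor genes and at 14.0 per Mb near neuronal adhesion, receptor and channel genes.

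Of the 25 genes nearest to the most desert sites, 5 were developmental transcription factors, 1 was a secreted factor, 5 belonged to the neuronal class and 14 to none. The transcription factors were Nr2f2, an orphan nuclear receptor, with 84 sites, the homeodomain factor Meis1 with 70, Sall1 with 69, the zinc finger repressor Zeb2 with 63 and Sox9 with 59. Genes of no class included Zfp608 with 141 sites, Tbl1xr1, a corepressor component, with 72, the kinase gene Map3k7 with 69, Cd83 with 67, Zfp36l1 with 66 at 370 per Mb, the coregulator Cited2 with 65 and Npvf, a neuropeptide precursor, with 62. Also among them were Gm10295 with 59, the proliferation antigen gene Mki67 with 58, Zmiz1 with 55, Ajap1 and Nfe2l3 with 53 each, Ankrd50 with 51 and the ciliogenesis gene Intu with 50. The neuronal class gave Flrt2 with 98, Adgrl2, a latrophilin, with 83, Cdh11 with 64, Cdh5 with 51 and the ephrin receptor Epha4 with 49. The secreted factor was Adamts20 with 52. These 25 genes, picked by their own counts of sites, held 8.48% of the sites in 3.32% of the territory.

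The kidney developmental list bordered more of these sites than genes at large. Of its 30 genes, 24 had desert territory and all 24 were nearest to at least 1 desert site, against 79.4% of all 2529 genes with desert territory. At least 10 sites were found for 16 of the 24, against 25.8% of all such genes. Together the 24 had 646 sites in 10.9 Mb, or 59.5 per Mb, against 30.8 per Mb over the whole desert. All belong to the developmental transcription factor or secreted signal class, which stood at 47.0 and 46.9 per Mb. The list was not matched to other genes for the amount of desert bordered. These counts describe the list and do not test it. The other 6 genes had no desert territory.

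Sall1, a zinc finger factor needed for outgrowth of the ureteric bud, had sites from 109 to 631 kb from its TSS, with median signals of 22.1 in replicate 1 and 18.8 in replicate 2. Meis1, a marker of kidney stroma, had medians of 25.7 in replicate 1 and 21.4 in replicate 2, and its strongest site reached 114 in replicate 1 and 105 in replicate 2. Sox9, a factor of ureteric tips and of repairing tubules, had its 59 sites at 17.5 in replicate 1 and 15.6 in replicate 2. The medians of Meis1 and Sall1 thus lay above those of all desert sites in both replicates, and those of Sox9 below them. Sox11 and Tshz3, a factor of ureteral smooth muscle, had 45 each, Nr2f1 34 and Gata3, a nephric duct factor, 33. Pou3f3, active in the loop of Henle, had 28, Bmp2 24, and Irx1 and Osr1, an early factor of intermediate mesoderm, 17 each.

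The genes with fewer sites differed widely in how much desert they bordered. Bmp7, a survival signal for nephron progenitors, had 15 sites in 0.094 Mb, Irx3 14, and Tcf21, a factor of podocytes and stroma, 12 in 0.0468 Mb. Tbx18 had 9, Emx2 and Tfap2b 8 each, Lhx1 6, Fgf10 and Meis2 4 each. Six2, which maintains nephron progenitors, had 2 sites, at 27.3 in replicate 1 and 23.6 in replicate 2 by median, in 0.0461 Mb. Bmp4 had 1, at 15.1 in replicate 1 and 10.1 in replicate 2. Density therefore did not follow count, with 256 per Mb for Tcf21, 160 for Bmp7, 133.6 for Lhx1, 114 for Sall1 and 13.1 for Meis2. The nearest gene by TSS is a position and not a measured target.

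Genes nearest to many desert sites more often had an open promoter, a readout the choice of sites did not use. A promoter peak within 1 kb of a TSS was present in both replicates for 91.2% of the 285 genes with 20 or more desert sites and for 86.8% of the 1170 genes with 5 or more. It was present for 69.7% of the 521 genes with desert territory but no site, and for 82.1% of all 2529 genes with desert territory. The share was 73.4% over all autosomal protein-coding genes, with or without desert territory. With 1 to 4 sites it was 83.2%, with 5 to 9 it was 83.8% and with 10 to 19 it was 87.8%. The groups were not matched for gene class or for the amount of desert bordered, and the part of these was not tested. Of the 39 chemosensory receptor genes, of which 0% had this promoter peak, 11 had a desert site. The median signal of the promoter peaks was 102 (replicate 1) and 111 (replicate 2) with 20 or more sites, against 68.7 and 73.3 with none and 97.1 and 106.5 over all autosomal protein-coding genes with such a peak. The signal of genes with many sites was thus close to that of all genes. Of the 25 genes with the most sites 23 had the promoter peak in both replicates. Npvf had none in either, and Gm10295 had none in replicate 1 and a signal of 9.23 in replicate 2.

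Among genes with an open promoter in both replicates, the density near developmental transcription factor genes was 47.8 sites per Mb, against 31.6 for the rest, a ratio of 1.51.

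Desert sites seldom lay in repeats. Soft-masked bases, those that the reference genome marks as interspersed repeats or low-complexity sequence, made up at least 50% of 351 desert sites (1.79%), against 3.65% of nearer intergenic sites, and the share was lower at desert sites on 19 of 19 autosomes. Among windows of 150 bp placed every 1 kb of territory, 34.2% were at least 50% masked in the desert and 34.4% in nearer intergenic sequence. Mean masked bases in such windows were 9.85% at desert site centres, 20.8% at 500 bp to either side, 29.5% at 5 kb and 39.3% over the desert territory. Nearer intergenic sites gave 11.1%, 25.1%, 30.2% and 38.6%. At least 1 masked base was present in 54.5% of desert sites.

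**Figure D4:**
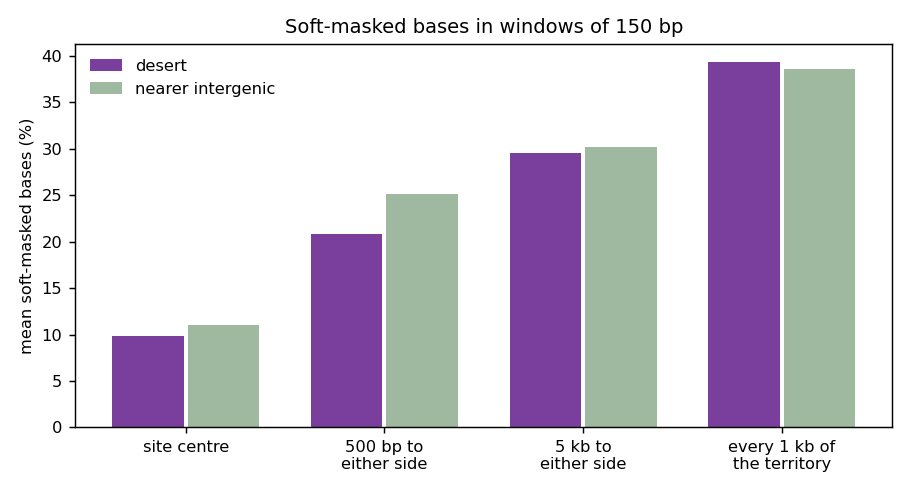
Mean share of soft-masked bases (%) in 150 bp windows at the site centre, 500 bp and 5 kb to either side, and every 1 kb of the territory, for desert and nearer intergenic sites. The desert mean was 9.85% at the centre and 39.3% over the territory.

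Masked desert sites were weaker. The 351 sites at least 50% masked had median signals of 16.4 (replicate 1) and 14.8 (replicate 2), against 20.1 and 17.7 at the 8935 sites with no masked base. The central 32-mer occurred more than once in the assembled chromosomes at 11.4% of the 351 sites and at 0.19% of those without a masked base. How the authors treated reads that map to several places is unknown here, and its part in these values was not tested.

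Sequence content also changed with distance. A search for 18 consensus sequences on both strands of the central 150 bp was set beside windows of the same length 500 bp to either side, which may themselves overlap other sites. CTCF was matched in 443 desert sites (2.26%) and in 0.0714% of flanking windows, against 5.34% of nearer intergenic sites and 0.15% of their flanks. The CTCF share was lower at desert sites on 19 of 19 autosomes, and at 40 to 50% G+C it was 2.21% at desert sites and 4.80% at nearer intergenic sites. Desert sites with a match had median signals of 35.2 (replicate 1) and 37.5 (replicate 2), against 19.3 and 16.9 without. With desert sites split into 4 equal groups by mean signal rank, the share was 0.449%, 0.958%, 1.92% and 5.71%, weakest group first. By distance the CTCF share was 6.50% at 1 to 10 kb, 5.65% at 10 to 50 kb, 3.31% at 50 to 100 kb, 2.64% at 100 to 200 kb, 1.81% at 200 to 500 kb and 2.37% beyond.

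The posterior HOX consensus TTTATGG, of the homeodomain factors that pattern the caudal body and the kidney, was matched more often with distance in every band, whereas CTCF was matched less often up to 500 kb and more often beyond it. HOX was matched in 5.01% of desert sites and 2.81% of their flanks, against 3.22% of nearer intergenic sites and 2.17% of their flanks, and was higher at desert sites on 19 of 19 autosomes. Its share was 2.54% at 1 to 10 kb, 3.21% at 10 to 50 kb, 4.03% at 50 to 100 kb, 4.37% at 100 to 200 kb, 5.38% at 200 to 500 kb and 6.12% beyond. Median G+C content fell over the same bands to 42.0% beyond 500 kb, against 50.7% at 1 to 10 kb. At 40 to 50% G+C the HOX share was 4.75% at desert sites and 4.07% at nearer intergenic sites, a smaller gap. HOX was not alone in being higher at desert sites in that range. The E-box was matched in 15.3% of desert sites there, against 13.2%, and the MEIS core in 14.3%, against 12.8%. Others were lower at desert sites there, such as CTCF at 2.21%, against 4.80%.

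**Figure D5:**
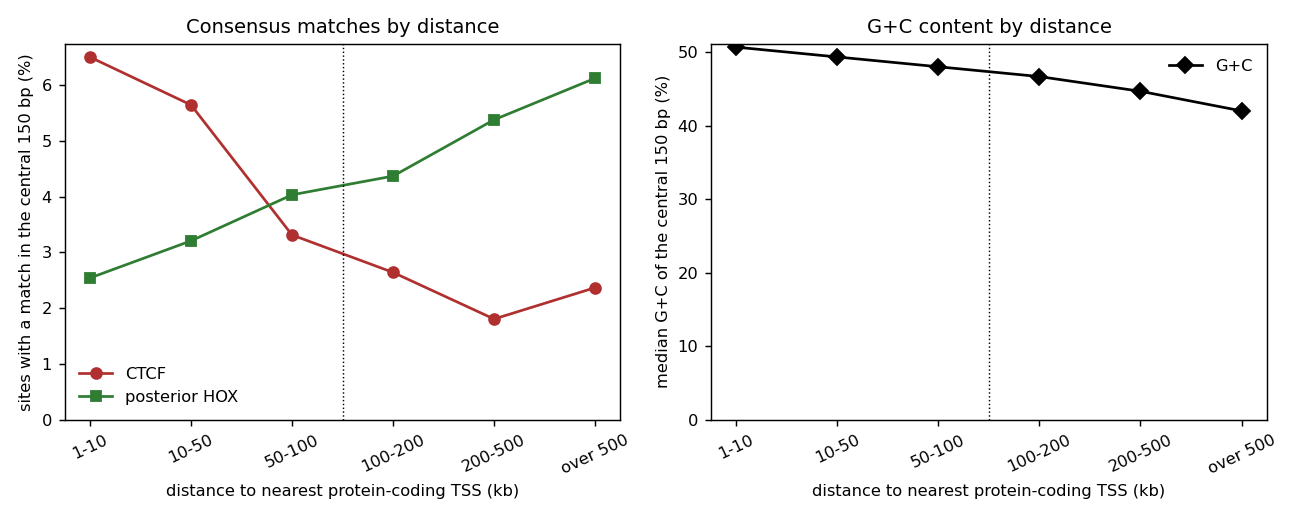
Percent of sites with a CTCF or posterior HOX consensus match in the central 150 bp (left) and median G+C content (right, %) by distance to the nearest protein-coding TSS in kb; desert sites lie right of the dotted line. CTCF was at 2.37% and HOX at 6.12% beyond 500 kb, where G+C content was 42.0%.

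Of the 18 consensus sequences 9 were matched at least 1.5 times as often at desert site centres as in their flanks, and for several the nearer intergenic values were similar. The E-box CAGCTG was matched in 15.5% of desert centres and 6.14% of their flanks, against 15.7% and 7.30% for nearer intergenic sites. The TEAD consensus ACATTCC, of Hippo pathway effectors, had a ratio of centre over flank of 2.29 at desert sites and 2.23 at nearer intergenic sites. The ETS consensus CCGGAAG had ratios of 2.52 at desert sites and 2.45 at nearer intergenic sites. The AP-1 consensus TGACTCA had a lower ratio at desert sites, 1.53 against 1.93. The neuronal repressor REST was matched at 64 desert sites (0.326%) and in 1 of their flanking windows, against 0.274% of nearer intergenic sites. The NFI palindrome, TTGGC and GCCAA with 5 bases between, was matched at 24 desert sites (0.122%) and in 1 flanking window, against 0.105% of nearer intergenic sites. HNF1, a factor of kidney epithelium, was searched as GTTAAT and ATTAAC with 1 base between and was matched at only 1 site and in 1 flanking window, so its place among the 9 rests on those matches. FOX, RUNX, MEIS and the nuclear receptor core AGGTCA had ratios of 1.26 to 1.43. The ratio was under 1.1 for 5, namely AGATAAG of GATA factors, ACAATGG of SOX factors, ATGCAAA of POU factors, TCAGGTT of the factor family of Six2, and CAAAGTC of HNF4. A match is a description of letters and not a measured binding site.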

How the data were processed

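Per the file headers and labels, the authors deposited 1 narrowPeak list per replicate on mm10 (GRCm38), called per sample. Aligner, peak caller, thresholds and depth were not given in the sources used here, so no precision per peak can be given. The deposited signal of each peak is the authors' value, a multiple of 1/64, with scaling not stated. Peak starts lie on a 20 bp grid.

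Overlapping peaks (at least 1 bp) were merged, and a site's signal in a replicate was that of its strongest peak. Genes and TSSs came from GENCODE M21. Sequence and soft masking came from the RefSeq GRCm38 genome. Territories left out N bases and every annotated gene body. Close copies were searched with blastn 2.17.0 (word size 11). Scripts used Python 3.11.15, numpy 2.4.6, pandas 2.3.3, numba 0.67.0 and scipy 1.17.1, and site merging, distances, clusters, territory and motif search were tested on simulated data (9 of 9 checks gave the planted answer).

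The members, gene classes, kidney list and consensus sequences were chosen with earlier results of these data known. Named were the 25 genes, 10 blocks, 10 sites and 5 clusters with the most sites or highest rank, the 5 densest blocks and the kidney list, of which some genes are not reported here; the sparse blocks were named after their values were seen, as were the blocks plotted. Alternatives were single replicate lists, the upper 50% of signal, overlap of at least 50%, 200 kb, TSSs of all genes, gaps of 5 and 20 kb, other masking rules and other gene assignments.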

Additional observations from a re-analysis of the deposited data

How the results depend on the processing

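An alternative was counted as moving a value when it shifted it by more than 1 SD between replicates, or a count by more than 1.5 times. With a single replicate's list in place of shared sites, desert sites numbered 25327 to 29003 and the density ratio of desert over nearer intergenic was 0.398 to 0.449. The share within 10 kb of another was then 78.9 to 80.7%, the share at least 50% soft-masked 2.37 to 2.51%, the CTCF share 1.57 to 1.81% and the open promoter share 87.3 to 87.8%. The ratio of median signals was 0.888 to 0.894 and the developmental factor density ratio 1.54 to 1.62. With the upper 50% of signal there were 9040 sites, a density ratio of 0.337, 56.5% within 10 kb, 1.22% masked, 4.07% with CTCF and 85.0% with an open promoter. With overlap of at least 50%, 69.1% lay within 10 kb and 2.58% had CTCF. Over 200 kb from a TSS there were 10646 sites, a density ratio of 0.329, 67.3% within 10 kb, a developmental factor ratio of 1.86, 1.935% with CTCF and 87.4% with an open promoter. With TSSs of all genes 3749 sites remained. With gaps of 5 and 20 kb, 59.3% and 83.8% had a neighbour. Any masked base was found in 54.5% of sites and a masked centre base in 9.20%. Genes with 10 or more sites had an open promoter in 89.3%. The cause of these shifts was not tested, apart from the construction of each setting. In all settings run, the density and signal ratios stayed below 1 and the developmental factor ratio above 1. Of the values under an alternative 29 moved and 22 did not. Without the 103 sites whose central 32-mer recurs in the genome, an alternative chosen after seeing the data, 19514 sites remained; so few sites could not move a median, so this says nothing of close copies. No paired analysis was possible because there is 1 group. Depth is unknown, so weak or absent sites cannot be told from shallow sequencing.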
